A study of Mus musculus with 16 samples.

Results

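The genes of the circadian clock described here, in RNA-seq libraries of mouse neural cells exposed to strobilurins, are Arntl, Nr1d1, Nr1d2, Per1, Per2, Per3, Cry1, Bhlhe40, Dbp and Tef. The members were taken by gene symbol, and all 10 were found among the 54658 genes in the count tables. C17.2α cells derive from C17.2, a line of neural cells from mouse cerebellum, and were engineered to express the thyroid hormone receptor TRα1, so that DMSO cells and exposed cells alike carry the transgene. They were grown in newborn calf serum stripped with charcoal, which depletes thyroid hormone, and no T3 was added to the libraries used here. Cells were lysed 24 h after exposure to the solvent DMSO (2 libraries, titled DMSO although their treatment is labelled untreated) or to a strobilurin, a class of fungicides designed to block the fungal cytochrome bc1 complex. Picoxystrobin, pyraclostrobin and trifloxystrobin each have 4 libraries, at 30, 100, 300 and 1000 nM, and azoxystrobin has 1 library at 1000 nM. No concentration was repeated and nothing says that libraries came from separate cultures. The 4 concentrations of a compound served as its samples, so a p-value measures only the spread between these libraries, and an SD within a compound also holds its response to concentration.

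The molecular clock is a loop of transcription factors. CLOCK and BMAL1, the product of Arntl, bind E-boxes and drive the Per and Cry genes, the Nr1d genes, Bhlhe40, Dbp and Tef. PER and CRY proteins then repress CLOCK and BMAL1, the REV-ERB proteins encoded by Nr1d1 and Nr1d2 repress Arntl, and ROR proteins activate it through the same element. DBP and TEF are activators that bind D-boxes, for example in Per genes. Cultured cells can keep such loops running, each cell with its own phase. All libraries here were collected at 1 time after exposure, and whether these cells had a rhythm or shared a phase was not measured. In cells that share a phase, a change in the mean level and a shift in phase could therefore not be told apart. Nor can fewer cells expressing a gene be told from less RNA per cell.

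The 250 bases before the transcription start are shown for 4 members: Nr1d1, Per1 and Cry1, on which the results for pyraclostrobin turn, and Per3, whose window holds another element. Sequences are from RefSeq (GRCm38.p6), 5′ to 3′ on the strand of the gene, with matches to an E-box (CACGTG), a variant of it called the E-prime box (CACGTT, or AACGTG on the other strand) or a D-box (TTATGTAA or TTACGTAA) in capitals.
Nr1d1, chr11:98775378-98775627, minus strand: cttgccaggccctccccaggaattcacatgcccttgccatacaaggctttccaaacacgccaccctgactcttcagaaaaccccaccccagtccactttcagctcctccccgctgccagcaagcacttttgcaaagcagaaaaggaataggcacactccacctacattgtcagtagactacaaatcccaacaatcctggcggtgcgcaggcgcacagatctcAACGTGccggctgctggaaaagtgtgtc
Per1, chr11:69098699-69098948, plus strand: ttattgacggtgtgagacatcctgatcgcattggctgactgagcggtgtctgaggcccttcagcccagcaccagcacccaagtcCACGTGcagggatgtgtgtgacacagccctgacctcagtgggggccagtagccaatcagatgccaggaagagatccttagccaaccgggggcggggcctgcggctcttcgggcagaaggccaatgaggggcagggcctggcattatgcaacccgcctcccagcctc
Cry1, chr10:85185055-85185304, minus strand: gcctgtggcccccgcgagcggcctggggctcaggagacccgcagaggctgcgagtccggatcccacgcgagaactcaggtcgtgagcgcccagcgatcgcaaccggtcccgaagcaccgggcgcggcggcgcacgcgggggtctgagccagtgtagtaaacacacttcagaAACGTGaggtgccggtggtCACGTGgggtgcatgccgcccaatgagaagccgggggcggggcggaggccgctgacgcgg
Per3, chr4:151044666-151044915, minus strand: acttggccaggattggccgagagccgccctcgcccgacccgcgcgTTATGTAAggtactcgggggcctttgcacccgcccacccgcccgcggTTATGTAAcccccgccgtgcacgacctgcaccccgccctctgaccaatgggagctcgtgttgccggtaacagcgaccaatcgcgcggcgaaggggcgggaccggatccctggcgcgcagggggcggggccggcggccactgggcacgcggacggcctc
The Nr1d1 window held an E-prime box that begins 28 bases before the start, and the Per1 window an E-box 166 bases before it. The Cry1 window held an E-box at 60 bases and an E-prime box at 79 bases before the start, and the Per3 window held D-boxes at 205 and 158 bases. Of the 10 members, 8 had RefSeq windows, 11 in all, each running from 250 bases before the start to 50 bases after it. Both strands were searched. An E-box was found in the windows of 3 members (Per1, Cry1 and Tef) and in those of 8.09% of 27025 genes. The E-prime box was found in 2 members and 5.44% of genes, the D-box in 1 member and 1.23% of genes, and the ROR element (RORE) in Arntl alone of the 8 and 0.459% of genes. The cyclic AMP response element TGACGTCA was in none of the members' windows and in those of 2.03% of genes. These are matches of letters in short windows and not binding sites.

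Libraries held between 12292390 and 18188099 counts. A further azoxystrobin library, labelled 100 nM, had counts identical to those of a DMSO library and was left out, while every other pair of the 16 differed in at least 22355 genes. The log2 change of each gene from the DMSO mean was correlated across 13929 genes with the GC content of its transcript, with Pearson r of -0.53, -0.60 and -0.67 for picoxystrobin at 30, 100 and 300 nM, 0.17 for picoxystrobin at 1000 nM, and between -0.31 and -0.04 for the other exposed libraries. The 2 DMSO libraries stood at 0.28 and -0.28 around their own mean. These are values across genes, which are not independent replicates. Of the 10 members, 8 have a GC content above the median of the tested genes, 49.28%, with Dbp at 61.57%, Per1 at 59.39% and Nr1d1 at 56.82%, while Nr1d2 is at 41.84%. Of the 6 markers of neural progenitors, 5 had a median over 1 CPM (counts as a share of the TMM-scaled library size), with Sox2 at 38.4 and Nes at 164 CPM but Pax6 at 0.06, while of the 5 neuronal markers Map2 (108 to 161 CPM over the libraries) and Tubb3 (11.7 to 30.6 CPM) were expressed and Rbfox3, Syt1 and Snap25 had medians of 0 to 0.26 CPM. The markers of fibroblasts were expressed (5 of 5), and their summed level moved with pyraclostrobin, from 7354 and 8445 CPM in DMSO to 6339, 6245, 4402 and 4079 CPM at 30, 100, 300 and 1000 nM. It was 5244 to 7518 CPM with picoxystrobin and 6286 to 7514 CPM with trifloxystrobin. This sum is nearly all reads of the collagen genes Col1a1, Col1a2 and Col3a1. Of the other markers of the set, Pdgfra was 18.95 and 22.63 CPM in DMSO and 18.25, 16.2, 14.54 and 14.67 CPM with rising pyraclostrobin. Dcn stayed between its DMSO values of 23.36 and 33.21 CPM, at 27.28, 25.98, 24.95 and 27.32 CPM with pyraclostrobin. Oligodendrocyte markers (4 of 5 over 1 CPM) summed to 1366 to 1384 CPM in DMSO and 1452 to 1545 CPM with pyraclostrobin, with Mog near 0. Of the progenitor markers, Sox9 was 34.35 and 29.18 CPM in DMSO and 25.47, 25.41, 16.95 and 17.08 CPM with rising pyraclostrobin. It was 16.25 to 21.68 CPM with picoxystrobin and 22.89 to 26.86 CPM with trifloxystrobin. Nes went the other way, from 146.3 and 152.4 CPM in DMSO to 171.9, 164.1, 203.1 and 198.6 CPM with pyraclostrobin. Sox2 was 43.58 and 38.36 CPM in DMSO and 36.89 to 44.16 CPM with pyraclostrobin. The part of these shifts in the results for the clock genes was not tested.

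All members were expressed in DMSO cells. Levels were compared between genes per kilobase. Over all exon bases of a gene, the mean level of the DMSO libraries was highest for Nr1d1 (18.2 CPM per kb), followed by Tef (13.8), Bhlhe40 (12.1), Nr1d2 (5.38), Dbp (4.72), Per2 (4.68), Cry1 (3.82), Arntl (3.24), Per1 (3.21) and Per3 (2.26). In this order the 2 DMSO values overlapped for Dbp and Per2 (4.53 and 4.90 against 4.15 and 5.20) and for Arntl and Per1 (3.23 and 3.25 against 2.94 and 3.47), so neither pair could be ranked. The other neighbours did not overlap. The order depends on the length used: per kilobase of the longest transcript Tef was highest (24.7 CPM per kb), followed by Nr1d1 (20.6), Bhlhe40 (18.2) and Dbp (7.69), and Arntl (6.10) was above Per2 (4.70) and Cry1 (4.21). Per3 had the lowest mean on both scales. On the second its DMSO values (3.56 and 3.69) lay within those of Per1 (3.54 and 4.19), so these genes could not be ranked there. Counts per library were between 147 for Cry1 and 2023 for Tef, at which counting error alone is 8.25% for the lowest count. Over all 15 libraries the highest level was 2.4 times the lowest for Dbp and 2.3 times for Nr1d1, against 1.39 times for Arntl and for Tef.

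**Figure D1:**
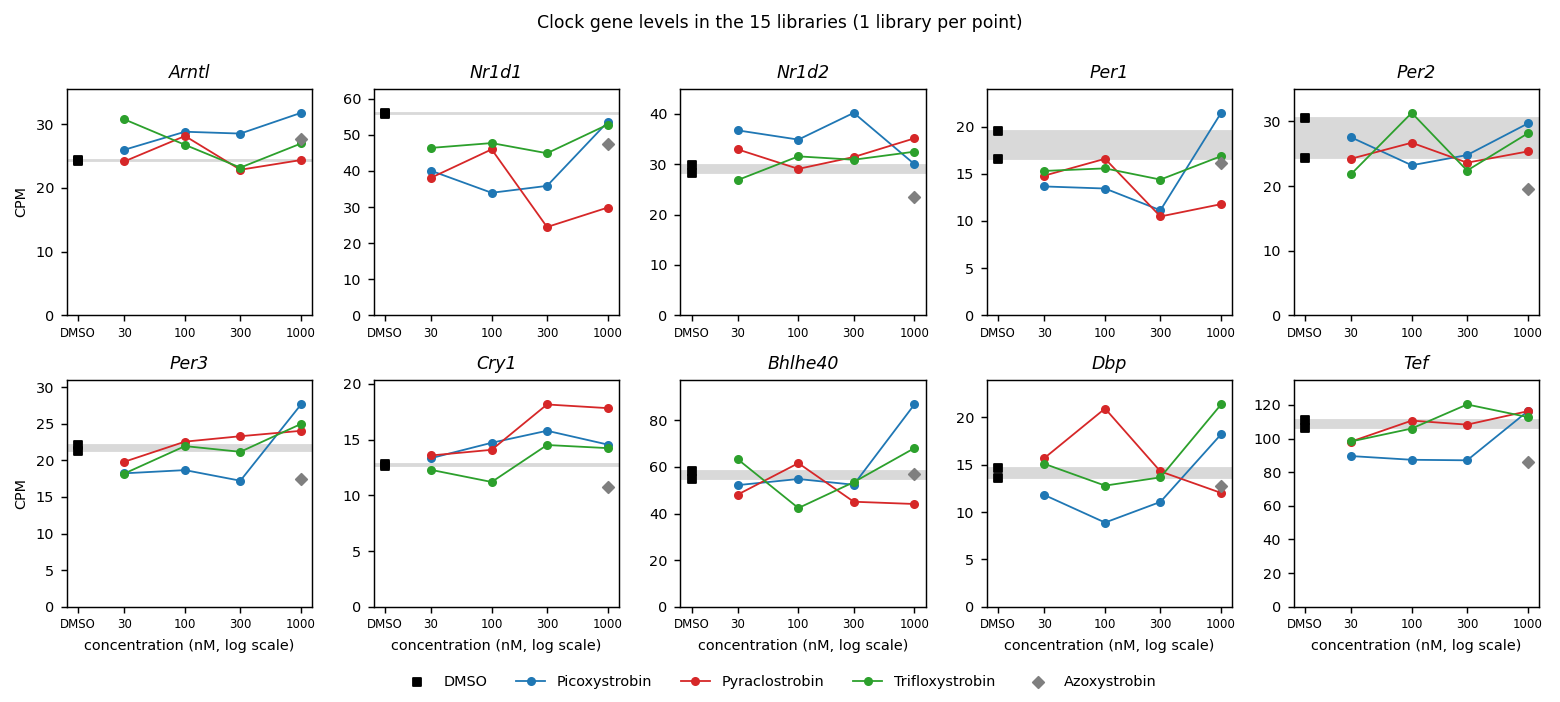
Level of each clock gene in CPM (vertical axis, from 0) against the concentration in nM (log axis, with the 2 DMSO libraries as squares at the left and their range as a grey band). Each point is 1 library. Nr1d1 in the pyraclostrobin libraries at 300 and 1000 nM is at 24.4 and 29.8 CPM, the lowest of all libraries, and Cry1 in the same libraries is at 18.2 and 17.8 CPM, the highest.

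Nr1d1 encodes REV-ERBα, a heme-binding nuclear receptor that represses Arntl. Its level was 56.1 and 55.7 CPM in the DMSO libraries. With pyraclostrobin it was 38.1, 46.01, 24.4 and 29.8 CPM at 30, 100, 300 and 1000 nM. With picoxystrobin it was 40.1, 33.9, 35.9 and 53.6 CPM at the same concentrations. All 8 of these libraries were under both DMSO libraries, although picoxystrobin at 1000 nM lay close to them. Trifloxystrobin gave 46.4, 47.8, 44.9 and 52.9 CPM, and azoxystrobin at 1000 nM gave 47.5 CPM, so that no exposed library reached the DMSO level. The gene lies at chr11:98767932-98775333 (mm10, minus strand), and its 3′ end overlaps Thra, the gene of the thyroid hormone receptor, on the opposite strand over 1075 bases. Of these, 263 are exonic in both genes, 8.55% of the exon bases of Nr1d1. How the counting treated the strand is not given in the sources used here, and without strand the reads of the overlap cannot be assigned to either gene. Thra, whose reads cannot be told from those of the TRα1 transgene, was 77.1 and 67.6 CPM in DMSO and 72.2, 73.6, 65.5 and 61.5 CPM with pyraclostrobin. There were 0.728 and 0.824 Nr1d1 reads per Thra read in DMSO, 0.373 and 0.486 with pyraclostrobin at 300 and 1000 nM, and 0.528 to 0.787 in the other exposed libraries.

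Nr1d2 encodes REV-ERBβ, the paralog of REV-ERBα with a similar role. Its level was 29.9 and 28.2 CPM in DMSO, and 32.9, 29.1, 31.4 and 35.1 CPM with rising pyraclostrobin. Picoxystrobin gave 36.7, 34.9, 40.2 and 30.01 CPM, all above both DMSO libraries, and trifloxystrobin gave 26.8, 31.6, 30.9 and 32.5 CPM, on both sides of them. Within a library, where no scaling between libraries enters, there were 1.88 and 1.97 Nr1d1 reads per Nr1d2 read in DMSO. The ratio was 1.16, 1.58, 0.778 and 0.849 with pyraclostrobin at 30, 100, 300 and 1000 nM, and 1.09, 0.973, 0.892 and 1.79 with picoxystrobin. With trifloxystrobin it was 1.73, 1.51, 1.45 and 1.63, and with azoxystrobin 2.03. The ratio of these paralogs, whose transcripts differ in GC content, was thus under 1 in 4 libraries, pyraclostrobin at 300 and 1000 nM and picoxystrobin at 100 and 300 nM, and the picoxystrobin libraries at 30, 100 and 300 nM were those with the strongest relation to GC content. After a correction for the length and GC content of transcripts, the log2 changes of Nr1d1 in these 3 picoxystrobin libraries went from -0.48, -0.72 and -0.64 to -0.21, -0.43 and -0.24, and those of Nr1d2 from 0.34, 0.26 and 0.47 to 0.19, 0.07 and 0.13. For pyraclostrobin at 300 and 1000 nM the changes of Nr1d1 were -1.19 and -0.91 before and -1.07 and -0.72 after.

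**Figure D2:**
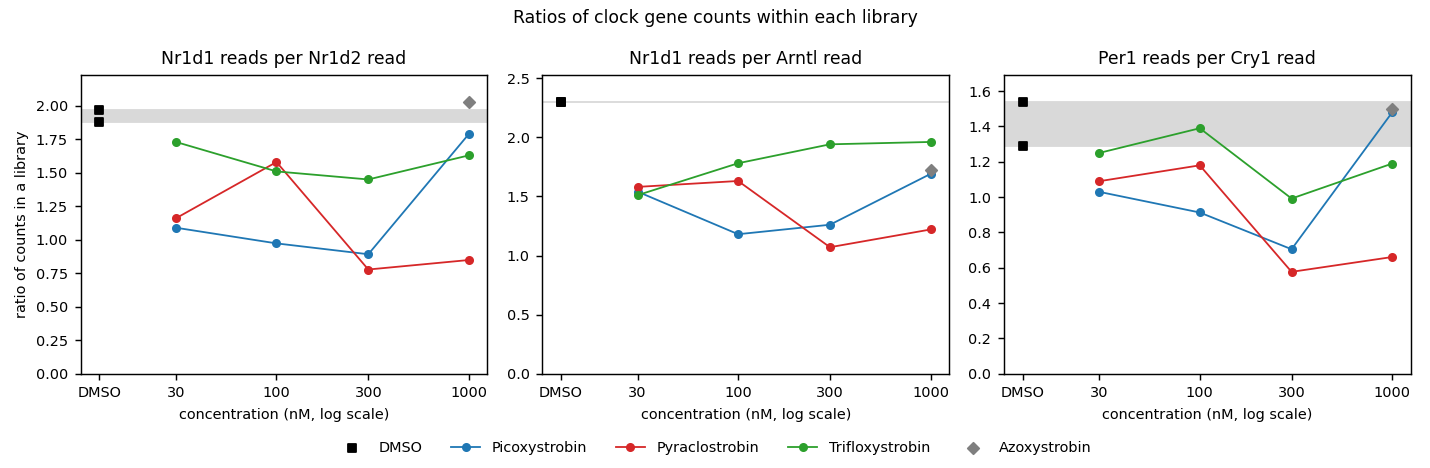
Ratio of the counts of a pair of clock genes within each library (vertical axis, from 0) against the concentration in nM (log axis), with the 2 DMSO libraries as squares and a grey band. The ratio of Nr1d1 to Nr1d2 is 1.88 and 1.97 in DMSO and under 1 with pyraclostrobin at 300 and 1000 nM and picoxystrobin at 100 and 300 nM.

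The Per genes encode partners of the CRY proteins in the repressor complex. Per1, an immediate-early gene, was 19.6 and 16.5 CPM in DMSO, with the DMSO libraries further apart than for Nr1d1. It was 14.8, 16.6, 10.5 and 11.8 CPM with pyraclostrobin, the 2 higher concentrations lying under every DMSO and trifloxystrobin value. It was 13.7, 13.4, 11.1 and 21.5 CPM with picoxystrobin, where 1000 nM was above both DMSO libraries. Trifloxystrobin gave 15.3, 15.6, 14.4 and 16.9 CPM. With the GC correction the change of Per1 in picoxystrobin at 300 nM went from a log2 value of -0.70 to -0.14, while in pyraclostrobin at 300 and 1000 nM it went from -0.78 and -0.62 to -0.54 and -0.27.

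Per2 and Per3 gave overlapping groups. Per2 was 30.5 and 24.3 CPM in DMSO, 24.2, 26.7, 23.6 and 25.4 CPM with pyraclostrobin, 27.5, 23.2, 24.8 and 29.7 CPM with picoxystrobin and 21.8, 31.3, 22.4 and 28.2 CPM with trifloxystrobin. Per3 was 22.1 and 21.3 CPM in DMSO, 19.8, 22.6, 23.3 and 24.0 CPM with pyraclostrobin, 18.2, 18.7, 17.2 and 27.6 CPM with picoxystrobin and 18.2, 21.9, 21.2 and 25.0 CPM with trifloxystrobin. The highest Per3 value of each compound was at 1000 nM. Per3 lies within the span of Camta1, the gene of a transcription activator, on the same strand and with no exon base in common.

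Cry1 encodes a cryptochrome, the partner of PER proteins that represses CLOCK and BMAL1. It was 12.7 and 12.8 CPM in DMSO. It was 13.6, 14.1, 18.2 and 17.8 CPM with rising pyraclostrobin and 13.3, 14.7, 15.8 and 14.6 CPM with picoxystrobin, above both DMSO libraries in all 8. Trifloxystrobin gave 12.3, 11.2, 14.5 and 14.2 CPM, and azoxystrobin 10.8 CPM, the lowest of all libraries. There were 1.54 and 1.29 Per1 reads per Cry1 read in DMSO, and 1.09, 1.18, 0.577 and 0.661 with pyraclostrobin at 30, 100, 300 and 1000 nM. With picoxystrobin the ratio was 1.03, 0.913, 0.705 and 1.48 at the same concentrations, with 300 nM close to the low pyraclostrobin values, and with trifloxystrobin it was 0.992 to 1.39. Bhlhe40 encodes DEC1, which competes with CLOCK and BMAL1 at E-boxes. It was 54.99 and 58.4 CPM in DMSO, 48.1, 61.6, 45.1 and 44.1 CPM with pyraclostrobin, 63.3, 42.4, 53.5 and 68.1 CPM with trifloxystrobin and 52.2, 54.8, 52.4 and 86.8 CPM with picoxystrobin, where the library at 1000 nM stood apart from the others.

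Arntl stands for the positive arm among the members. It was 24.4 and 24.3 CPM in DMSO, 24.2, 28.2, 22.9 and 24.4 CPM with pyraclostrobin, 26.0, 28.8, 28.6 and 31.8 CPM with picoxystrobin, 30.8, 26.8, 23.2 and 27.0 CPM with trifloxystrobin and 27.7 CPM with azoxystrobin. Picoxystrobin was above both DMSO libraries at each concentration, while pyraclostrobin and trifloxystrobin lay on both sides. In the pyraclostrobin libraries in which Nr1d1 was lowest, Arntl was at 22.9 and 24.4 CPM, beside 24.4 and 24.3 CPM in DMSO. There were 2.3 Nr1d1 reads per Arntl read in both DMSO libraries, 1.07 and 1.22 with pyraclostrobin at 300 and 1000 nM, 1.18 to 1.69 with picoxystrobin and 1.51 to 1.96 with trifloxystrobin. The negative arm has 7 members (Nr1d1, Nr1d2, Per1, Per2, Per3, Cry1 and Bhlhe40), which did not move as a block: with pyraclostrobin at 300 nM, 4 of them were under both DMSO libraries and 3 above, and at 1000 nM 3 were under and 3 above. The median log2 change of the 7 was -0.21 at 300 nM and -0.11 at 1000 nM, beside -0.09 and 0.00 for Arntl. In picoxystrobin at 1000 nM 5 of the 7 were above both DMSO libraries and 1 was under. The share of all genes outside the DMSO values in these libraries is not given here. The counts therefore do not set the arm apart from other genes.

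Dbp and Tef, the D-box activators, are outputs of the loop. Dbp was 14.7 and 13.6 CPM in DMSO, 15.7, 20.9, 14.3 and 12.0 CPM with pyraclostrobin, 11.8, 8.89, 11.1 and 18.2 CPM with picoxystrobin and 15.1, 12.8, 13.7 and 21.4 CPM with trifloxystrobin. It overlaps Sphk2, a sphingosine kinase gene, on the opposite strand, over 539 exonic bases or 18.01% of its exons. Tef was 111 and 106 CPM in DMSO, 98.2, 111, 108 and 116 CPM with pyraclostrobin, 89.6, 87.4, 87.1 and 116 CPM with picoxystrobin and 98.3, 106, 120.3 and 113 CPM with trifloxystrobin. Both genes lay under the DMSO libraries with picoxystrobin at 30, 100 and 300 nM and above them at 1000 nM. With the GC correction the log2 changes of Tef in the first 3 went from -0.28, -0.31 and -0.32 to -0.09, -0.13 and -0.05. Those of Dbp went from -0.26, -0.67 and -0.35 to 0.08, -0.30 and 0.14, so that the direction turned at 30 and 300 nM.

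**Figure D3:**
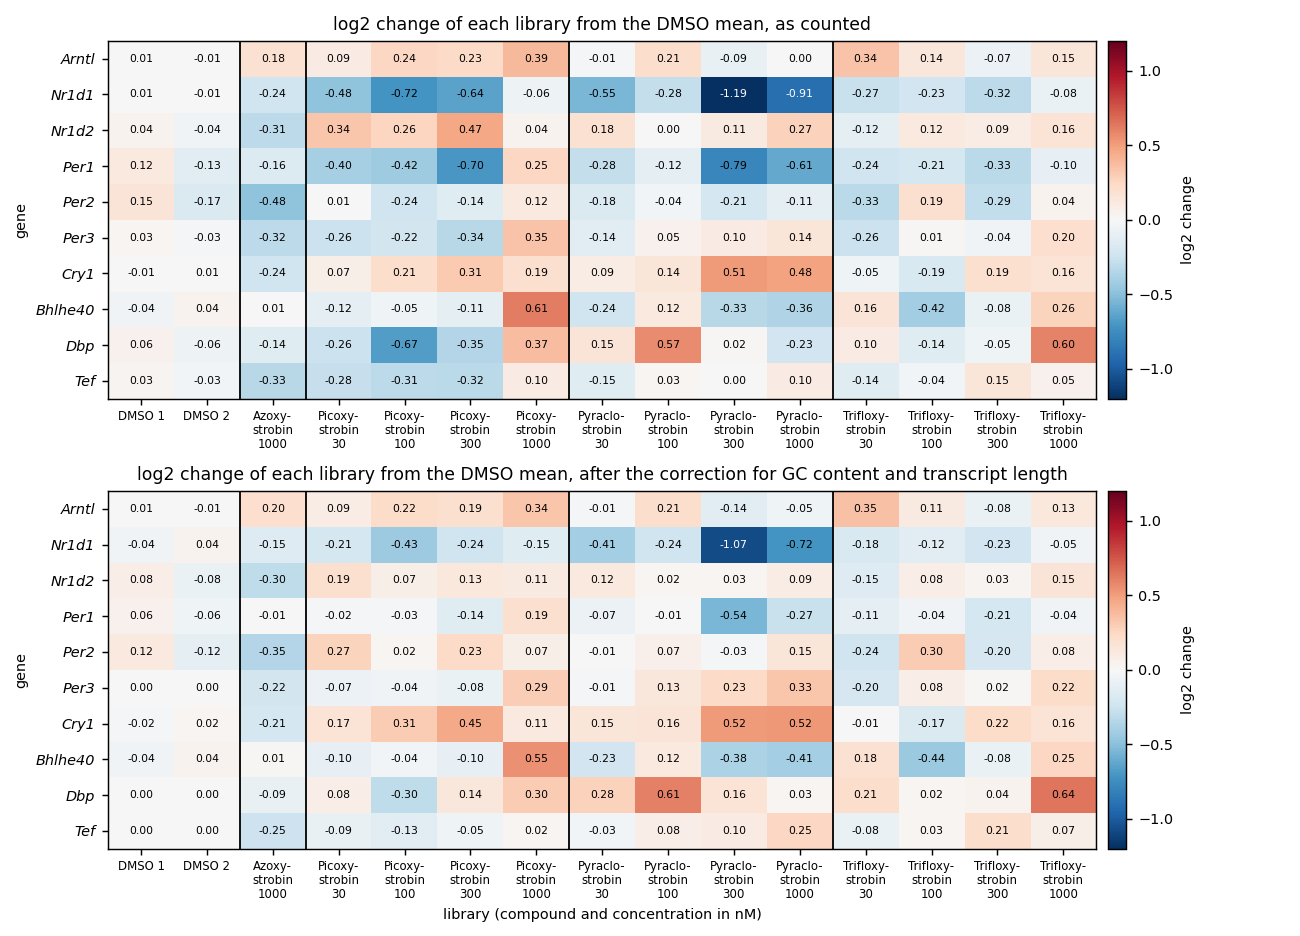
Log2 change of each clock gene (rows) in each library (columns, with the concentration in nM) from the mean of the 2 DMSO libraries, red for higher and blue for lower, as counted (upper panel) and after correcting for length and GC content of transcripts (lower panel). Nr1d1 with pyraclostrobin at 300 nM has the lowest value in both panels, -1.19 and -1.07, while the blue cells of picoxystrobin at 30, 100 and 300 nM are paler in the lower panel.

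Each compound was then tested against DMSO with the quasi-likelihood test of edgeR over 14004 genes, with p-values adjusted by the Benjamini-Hochberg method and called under 0.05. None of the 10 members passed for any compound. For pyraclostrobin, for which 1.31% of all genes were called, 2 members had an unadjusted p under 0.05 and DESeq2 called 1, Nr1d1. For picoxystrobin (0.0286% of genes called) 2 members had an unadjusted p under 0.05 and DESeq2 called 0. For trifloxystrobin (0% called) 0 members had an unadjusted p under 0.05, and for azoxystrobin (0% called) 1, Per2, with 0 called by DESeq2 in both. Over all 14004 genes, an unadjusted p under 0.05 was found for 3261 with pyraclostrobin, 2351 with picoxystrobin, 240 with trifloxystrobin and 293 with azoxystrobin. The largest fitted change was that of Nr1d1 with pyraclostrobin, from 55.9 ± 0.290 CPM (SD, n = 2) to 34.6 ± 9.46 CPM (SD, n = 4), a log2 fold change of -0.71 (SE 0.20, 95% interval -1.13 to -0.28, adjusted p = 0.0778), lower in 4 of 4 libraries. With each library left out in turn, it passed in 2 of 15 fits, those without pyraclostrobin at 100 nM (adjusted p = 0.0286) and without picoxystrobin at 1000 nM (0.0272), which enters through the shared estimate of the spread. The adjusted p rose to 0.423 and 0.318 without the first and the second DMSO library. For picoxystrobin the log2 fold change of Nr1d1 was -0.46 (SE 0.20, adjusted p = 0.270) and that of Nr1d2 0.28 (SE 0.12, adjusted p = 0.276). Without picoxystrobin at 1000 nM, 3 members passed: Nr1d1 at -0.62 (adjusted p = 0.0301), Nr1d2 at 0.35 (0.0313) and Tef at -0.31 (0.0288). The number of all genes called also rose far in that fit, as given below, so these calls are not particular to the members. With the GC correction as well, none of these 3 members passed (adjusted p = 0.378, 0.521 and 0.665). For trifloxystrobin the 95% interval of the log2 fold change of Nr1d1 was -0.65 to 0.21 and that of Per1 -0.68 to 0.25, and both hold 0. The pyraclostrobin value of Per1, -0.44, lies within the trifloxystrobin interval of Per1, and that of Nr1d1, -0.71, lies just outside the trifloxystrobin interval of Nr1d1. The Nr1d1 intervals of pyraclostrobin (-1.13 to -0.28) and trifloxystrobin (-0.65 to 0.21) overlap and rest on the same DMSO libraries. Setting them side by side is therefore no test between the compounds. The direct comparison at matched concentrations, given below, did not pass.

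The members whose 4 libraries did not overlap the DMSO libraries can be read against all genes. With picoxystrobin there were 4 such members (Arntl, Nr1d2 and Cry1 above and Nr1d1 under), where 24.7% of all genes did not overlap. With pyraclostrobin there were 2 (Cry1 above and Nr1d1 under), where 37% of genes did not. With trifloxystrobin only Nr1d1 of the 10 did not overlap, against 15.3% of genes. For pyraclostrobin and trifloxystrobin the members' share was under that of all genes.

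The concentrations of 300 and 1000 nM of pyraclostrobin were also set against DMSO as a level of their own. In this fit Nr1d1 fell to 0.480 of its DMSO level (log2 fold change -1.06, SE 0.18, 95% interval -1.46 to -0.66, adjusted p = 0.00283), Per1 fell to 0.610 (-0.71, SE 0.24, adjusted p = 0.0485) and Cry1 rose 1.40-fold (0.48, SE 0.12, adjusted p = 0.0140), each in 2 of 2 libraries. These were 3 of 10 members, where 22.2% of the 14004 genes were called, so that the share of clock genes was near that of all genes. The other 7 members did not pass. Their log2 fold changes were between -0.36 (Bhlhe40, 95% interval -0.87 to 0.14) and 0.18 (Nr1d2, -0.14 to 0.49), with Arntl at -0.06 (-0.35 to 0.23). The same 3 members passed with the GC correction, at -0.88, -0.40 and 0.52, and with no picoxystrobin library in the fit, at -1.05, -0.71 and 0.49 in the order Nr1d1, Per1 and Cry1. The grouping was chosen with earlier results of these data known. The same grouping called 0 members with picoxystrobin and 0 with trifloxystrobin. The shares of all genes called in those fits are not given here, so the 3 calls are not shown to be particular to pyraclostrobin. The picoxystrobin libraries at 300 and 1000 nM differed, with Nr1d1 at 35.9 and 53.6 CPM and r with GC content of -0.67 and 0.17. The summed fibroblast markers, nearly all of them collagen reads, were lowest in the 2 pyraclostrobin libraries at 300 and 1000 nM. Their part in the result was not tested.

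**Figure D4:**
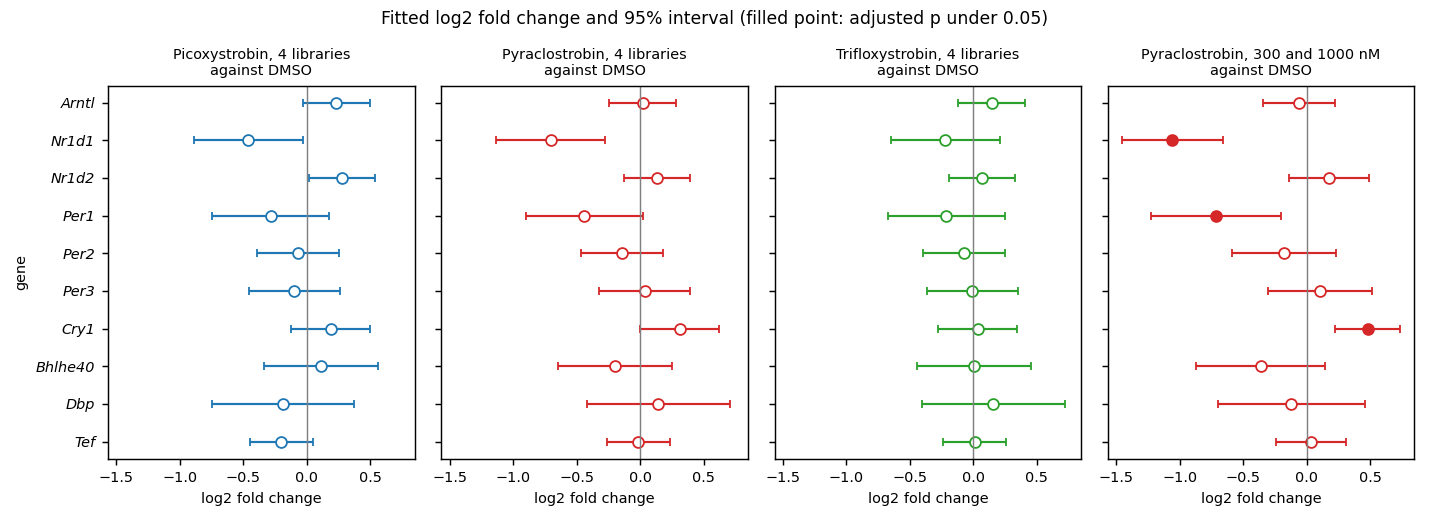
Fitted log2 fold change against DMSO (horizontal axis) of the 10 clock genes (rows), with bars for the 95% interval, for the 4 libraries of each of 3 compounds and, in the last panel, for pyraclostrobin at 300 and 1000 nM alone. Filled points have an adjusted p under 0.05, which holds only for Nr1d1 (-1.06), Per1 (-0.71) and Cry1 (0.48) in the last panel.

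The response to concentration was fitted as a slope per 10-fold concentration over the 12 libraries of 3 compounds, without the DMSO libraries. No member passed for pyraclostrobin (1.13% of 13989 genes called), picoxystrobin (0%) or trifloxystrobin (0%). An unadjusted p under 0.05 was found for 1 member with pyraclostrobin, Cry1, 1 with picoxystrobin, Per3, and 0 with trifloxystrobin, and DESeq2 called 0 in each. Of all 13989 genes, 2671, 1356 and 163 had such an unadjusted p, in the same order. With pyraclostrobin the log2 slope was -0.39 for Nr1d1 (SE 0.20, adjusted p = 0.323), -0.33 for Per1 (SE 0.21, adjusted p = 0.439) and 0.29 for Cry1 (SE 0.13, adjusted p = 0.259). With picoxystrobin it was 0.33 for Per3 (SE 0.14, adjusted p = 0.512) and 0.42 for Bhlhe40 (SE 0.19, adjusted p = 0.517), slopes that rest on the library at 1000 nM: without it the slope of Per3 was -0.11. Without picoxystrobin at 300 nM that of Per3 was 0.40 and passed (adjusted p = 0.0483).

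Picoxystrobin is a methoxyacrylate, pyraclostrobin a methoxycarbamate and trifloxystrobin an oximinoacetate. They were compared at matched concentrations, in a fit with the concentration as a block, over 3 pairs of compounds and 10 members, 30 differences in all, with p-values adjusted over all genes. No difference passed. Between pyraclostrobin and trifloxystrobin (0.0143% of genes called) 2 members had an unadjusted p under 0.05, Nr1d1 with a log2 difference of -0.50 (SE 0.17, 95% interval -0.86 to -0.14, adjusted p = 0.208) and Cry1 with 0.27 (SE 0.11, 95% interval 0.04 to 0.51, adjusted p = 0.243). Nr1d1 was lower with pyraclostrobin at 4 of 4 concentrations, as 38.1 against 46.4 CPM at 30 nM, 46.01 against 47.8 at 100 nM, 24.4 against 44.9 at 300 nM and 29.8 against 52.9 at 1000 nM. Between pyraclostrobin and picoxystrobin (0.0143% called) 0 members had an unadjusted p under 0.05, with Nr1d1 at -0.25 (95% interval -0.61 to 0.12). Between picoxystrobin and trifloxystrobin (0% called) only Tef did, at -0.22 (95% interval -0.42 to -0.02, adjusted p = 0.588). DESeq2 called 0 members in the 3 pairs. Of 13989 genes, 2392 had an unadjusted p under 0.05 between pyraclostrobin and trifloxystrobin, 1621 between pyraclostrobin and picoxystrobin and 1168 between picoxystrobin and trifloxystrobin.

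The slopes of 2 compounds were also compared directly. No member passed between pyraclostrobin and picoxystrobin (0% of genes called), where 3 members had an unadjusted p under 0.05: Per1 (difference of slopes -0.68, 95% interval -1.32 to -0.04, adjusted p = 0.483), Nr1d1 (-0.64, -1.24 to -0.04, 0.483) and Dbp (-0.78, -1.53 to -0.02, 0.483). No member passed between pyraclostrobin and trifloxystrobin (0% called) or between picoxystrobin and trifloxystrobin (0% called), and 0 had an unadjusted p under 0.05 in either. DESeq2 called 0 members in these comparisons. Over all 13989 genes, an unadjusted p under 0.05 was found for 1443, 1239 and 241 in these comparisons, in the order given. The difference for Nr1d1 between pyraclostrobin and trifloxystrobin was -0.48, with a 95% interval of -1.09 to 0.13.

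Azoxystrobin at 1000 nM had a single library, and its spread was taken from the other groups. It was under both DMSO libraries for 8 of the 10 members and above them for Arntl, with Bhlhe40 (56.96 CPM) between. The share of all genes outside the DMSO values in this library is not given here, so these counts are not a result about the members. Per2 was 19.6 CPM, the lowest of all libraries, with a log2 fold change of -0.48 (95% interval -0.96 to -0.0042, adjusted p = 0.9999). Nr1d2 (23.4 CPM), Tef (86.3 CPM) and Cry1 (10.8 CPM) were at the lowest value of all libraries too, Per1 was 16.1, Per3 17.5 and Dbp 12.8 CPM. The median log2 change of the 7 repressors was -0.24, beside 0.18 for Arntl. The median fitted change of the 10 members was -0.24 and that of all genes -0.01.

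A list of 32 genes of the clock pathway holds 22 genes beside the members, of which 21 passed the filter on low counts. None of the 21 passed in any of the 13 main comparisons. With pyraclostrobin at 300 and 1000 nM against DMSO, 6 of the 21 passed, and they are named here after their values were seen. Lower were Rora (26.98 and 31.58 CPM in DMSO, 20 and 18.29 CPM at 300 and 1000 nM, log2 fold change -0.63), the gene of the ROR activator of Arntl, Cry2 (-0.69), the second cryptochrome, and Csnk1d (-0.26), a kinase of PER proteins. Higher were Fbxl21 (0.86) of the ubiquitin ligases of CRY proteins, Hlf (1.11), another D-box activator at low counts, and Wee1 (0.53), a cell cycle kinase driven by the clock. Hlf had 13 counts in each DMSO library (0.78 and 0.76 CPM), 1.97 and 1.44 CPM with pyraclostrobin at 300 and 1000 nM, 1.54 and 1.55 CPM with trifloxystrobin and 1.49 and 1.54 CPM with picoxystrobin at these concentrations, so that its libraries of the 3 compounds overlapped. The cryptochromes went in opposite directions, with Cry1 at 17.8 to 18.2 CPM against 12.7 and 12.8 in DMSO and Cry2 at 9.66 to 10.4 CPM against 16.96 and 14.97. Clock and Npas2 were also singled out after their values were seen. Clock, the partner of Arntl, was at -0.05 (95% interval -0.34 to 0.24) and Npas2, which can take its place, at 0.89 (-0.02 to 1.79), from counts near 1 CPM. In all, 9 of 31 genes of the list passed, beside 22.2% of all genes.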

How the data were processed

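The authors prepared libraries from total RNA with the Lexogen SENSE kit, sequenced single ends on a NextSeq500 and deposited, for each library, raw counts of reads per gene made with htseq-count, without normalization. The submitters' processing notes name Bowtie2 2.3.2.2 and mm10, while the gene annotation and the strand setting are not given in the sources used here. Samples were grouped by the compound and concentration in their titles, and the 2 controls by DMSO in their titles, although their treatment label reads untreated. After TMM normalization, edgeR 4.0.16 in R 4.3.3 was used for quasi-likelihood tests over genes with an average over 1 CPM, with Benjamini-Hochberg adjustment over all of them and a threshold of 0.05, two-sided. The study's methods used a minimum of 10 CPM and DESeq2, which are alternatives here (DESeq2 1.42.0). A prior count of 2 was added for log2 values. Comparisons with DMSO were fitted on 15 libraries with 1 level per compound, and slopes on log10 concentration and matched differences on 12 libraries. In the correction for GC content and length, natural splines (4 degrees of freedom) of both entered as offsets. SE were derived from the test statistics. Positions are from GENCODE M21 (GRCm38), which held 54092 of the 54658 symbols. Scripts were tested on simulated data. Summaries and plots used matplotlib 3.10.9 and pandas 2.3.3 under Python 3.11.15.

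The members and lists were chosen with earlier results of these data known. The rule for named genes covered the 10 members in every comparison, Thra, other genes of the pathway list called in a main comparison (none was), and for each member the 2 tested genes most correlated with it. Outside this rule, and after their values were seen, 6 genes of the list called with pyraclostrobin at 300 and 1000 nM were named, as were Clock and Npas2. Alternatives included RLE size factors, DESeq2, a higher or no minimum of CPM, the GC and length correction, the grouping of concentrations, no block for the concentration, and each library left out in turn. Fits without the picoxystrobin libraries with the strongest GC relation, and combined settings, were added after seeing the data. Counting error at the lowest count of a member was between 2.92% (Tef) and 8.25% (Cry1), and the single library per concentration limits the precision further.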

Additional observations from a re-analysis of the deposited data

Results flagged for a closer look

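In groups of 4 libraries, the library farthest from the others was compared with the 95% critical value of Dixon's test for each member and each of 3 compounds, 30 groups in all. Chance would flag about 1 in 20 groups if the 4 libraries of a group were repeats. Here they are 4 concentrations, so a response at 1 concentration is flagged too and that rate does not apply as such. The library of picoxystrobin at 1000 nM stood apart in 3 of the 30 groups, and flags of the same library are not independent. For Bhlhe40 (86.8 CPM against 52.2 to 54.8 CPM at the lower concentrations) its gap to the nearest library was 0.924 of the range of the group. For Tef (116 CPM against 87.1 to 89.6 CPM) it was 0.914 and for Per3 (27.6 CPM against 17.2 to 18.7 CPM) 0.861. The same library had the opposite sign of relation to GC content (r of 0.17) from the other 3 picoxystrobin libraries (-0.53 to -0.67). After the correction for transcript GC content and length it was at a log2 change of 0.55 for Bhlhe40, 0.02 for Tef and 0.30 for Per3.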

How the results depend on the processing

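The count of members called was computed under 253 alternatives of 13 comparisons and kept its value of 0 in 242. It moved mainly for pyraclostrobin against DMSO. There it was 1 (Nr1d1) with DESeq2 (adjusted p = 0.0260), with no filter on low counts (0.000562) and without picoxystrobin at 30, 100 and 300 nM (0.0482). It was 3 with 300 and 1000 nM as a level of their own, also with the GC correction and with no picoxystrobin library. Leaving out each library in turn gave 0 to 1, with 1 without picoxystrobin at 1000 nM or pyraclostrobin at 100 nM. Over the same fits the log2 fold change of Nr1d1 was -0.87 to -0.57 and its adjusted p 0.0272 to 0.423. Between pyraclostrobin and trifloxystrobin at matched concentrations the count was 1 (Nr1d1, adjusted p = 0.00684) with no filter on low counts. For picoxystrobin against DMSO it was 0 to 3 over the libraries left out, with 3 without picoxystrobin at 1000 nM. For the picoxystrobin slope it was 0 to 1, with Per3 called without 300 nM. The slope of Per3 was -0.114 to 0.563 over these fits and turned negative only without 1000 nM. Fits that leave an arm with 1 library take its spread from the other groups. The cause of these changes was not tested. The added alternatives were chosen after seeing the data. All other counts were 0 under each alternative run.

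The number of all genes called moved far more than the members. For pyraclostrobin against DMSO it was 184 in the fit reported, 879 with DESeq2, 1195 with no filter and 3103 with 300 and 1000 nM as a level of their own. For picoxystrobin against DMSO it was 4, and 2685 without its library at 1000 nM. The 2 DMSO libraries bear every comparison with the controls, and leaving out either raised the adjusted p of Nr1d1 with pyraclostrobin to 0.423 or 0.318. Without the block for the concentration, the matched comparisons of compounds called 0 members too, as with it.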

Other observations

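Some genes followed the members closely over the 15 libraries. As a description over libraries that share compounds, depth and base composition, the gene most like Nr1d1 in log2 CPM was Anxa11, of a calcium-binding annexin (Pearson r of 0.956, mean level 10.4 CPM), followed by Tbc1d25 (0.952). Per1 was most like Wwp2, a ubiquitin ligase gene (0.958), and Rere (0.941). Cry1 was most like Rnf141 (0.941) and Stau2 (0.929), Dbp like Mapkapk2 (0.947) and Gpi1 (0.892), and Per3 like Tmem43 (0.934) and Wdr91 (0.927). Nr1d2 was most like Birc2 (0.924) and Gm15720 (0.922), Tef like Sdc1 (0.904) and Plxnd1 (0.895), and Bhlhe40 like Necap2 (0.896) and Zfp36l2 (0.891). For Per2 (Foxred1, 0.861, and Gm42047, 0.845) and Arntl (Gm29199, 0.784, and Got1, 0.771) the closest genes were less alike. Neither the paralogs Nr1d1 and Nr1d2 nor the Per genes were among the 2 closest genes of each other.

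The reads of Dbp per read of Nr1d1, both E-box outputs of the loop, were 0.261 and 0.243 in DMSO and 0.412, 0.455, 0.584 and 0.403 with pyraclostrobin at 30, 100, 300 and 1000 nM. The ratio was 0.262 to 0.340 with picoxystrobin, 0.268 to 0.404 with trifloxystrobin and 0.269 with azoxystrobin. Every exposed library of every compound was above both DMSO libraries, the lowest picoxystrobin value (0.262) only just, so this is not particular to pyraclostrobin. Outside pyraclostrobin, only trifloxystrobin at 1000 nM, at 0.404, reached the lowest pyraclostrobin value. This ratio was chosen after its values were seen and was not tested.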
